A study of Rattus norvegicus with 9 samples.

Results

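The mRNAs of 8 cytokine genes of the type 2 response and of mast cells (MCs) were followed in RBL-2H3, a line of rat basophilic leukemia cells that serves as an MC model. They were the interleukin genes Il3, Il4, Il5, Il13, Il6, Il9 and Il10, and Csf2, which encodes the growth factor GM-CSF. Their gene identifiers are 24495 (Il3), 287287 (Il4), 24497 (Il5), 116553 (Il13), 24498 (Il6), 116558 (Il9), 25325 (Il10) and 116630 (Csf2). The genes were looked up by gene symbol, and all 8 were found among the 38490 genes listed for each sample, of which 18006 had a value. RNA was sequenced in 9 samples, 3 in each of 3 groups, to compare resting cells, cells stimulated through the IgE receptor, and stimulated cells pretreated with an agent labelled PF.

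The IgE/DNP samples were sensitized with 50 ng/mL of anti-DNP IgE for 12 h and then stimulated with 100 ng/mL of the antigen DNP-HSA for 4 h, by their labels. The PF samples had the same sensitization and antigen and, before the antigen, a pretreatment with PF for 1 h. What PF is, neither the labels nor the study's text say. Its samples were stimulated for 4 h by the protocol field, but another field gives 4, 5 and 6 h for replicates 1, 2 and 3. The Ctrl samples are called untreated in one field, whereas the protocol field gives the sensitization and stimulation for them too. Their exposure to IgE is thus unsettled. Changes with antigen below are those of IgE/DNP vs Ctrl, where IgE and antigen were not separated. Nothing in the labels says that the replicates of a group were separate cultures, so the p-values measure only the spread between these samples, which may be technical.

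As background, B cells switch to IgE and T helper cells turn to type 2 under IL-4. IL-13 acts on epithelium and smooth muscle through a receptor that shares the IL-4 receptor alpha chain. IL-5 is the growth and survival factor of eosinophils. IL-3, IL-5 and GM-CSF signal through a common beta chain, and IL-3 is a growth factor of rodent MCs and basophils. In MCs, crosslinking of receptor-bound IgE by antigen activates calcium and MAP kinase signalling, and transcription of cytokine genes follows within hours.

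The files name no unit, and the values were read as FPKM, the fragments of a gene per kilobase of its length, scaled to the mapped fragments of the sample. Levels of different genes are set side by side on that reading. A gene was called detected if 3 or more of the 9 samples had at least 1 FPKM. By this rule 3 of the 8 genes were detected, namely Il3, Il4 and Il13. Il6, Il9, Il10 and Csf2 were low, each with a value above 0 in 5 or more samples but without 1 FPKM in 3 of them. Only Csf2 reached 1 FPKM at all, in 1 sample. Il5 had no value in any of the 9 samples, as was the case for 20484 genes in all, and is treated as not expressed. The sums over all genes were at most 591539 FPKM in the Ctrl and IgE/DNP samples and at least 610206 FPKM in the PF samples. How many reads each sample had is unknown, so no counting error is given.

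IgE/DNP vs Ctrl asks how stimulation through the IgE receptor alters these mRNAs. All 3 detected interleukins were higher with antigen, Il3 and Il4 the most. The Ctrl samples had 4.07, 3.96 and 4.50 FPKM of Il3, the IgE/DNP samples 17.7, 21.1 and 21.5 FPKM. The lowest IgE/DNP sample therefore lay far above the highest Ctrl sample. Il4, at 2.47, 2.26 and 2.27 FPKM in Ctrl, was the scarcest of the 3 in resting cells. It reached 11.8, 12.7 and 12.5 FPKM in IgE/DNP, again without overlap and with little scatter in either group. How many fragments the values of Il4 rest on is unknown, so this scatter was not compared with a counting error. Il13 was at 4.00, 3.91 and 4.58 FPKM in Ctrl and at 11.2, 12.4 and 14.3 FPKM in IgE/DNP, and its groups did not overlap either. Since these are bulk samples, more cells making an mRNA and more mRNA per cell cannot be told apart.

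The mean of Il3 was 4.18 ± 0.285 FPKM in Ctrl and 20.1 ± 2.04 FPKM in IgE/DNP (SD, n = 3 each), a ratio of 4.81. For Il4 the means were 2.33 ± 0.118 and 12.3 ± 0.514 FPKM (SD, n = 3 each), with the largest ratio of the 3, 5.28. Il13 had 4.16 ± 0.364 FPKM in Ctrl and 12.6 ± 1.58 FPKM in IgE/DNP (SD, n = 3 each), which is 3.04 times as much. Each increase was many times the SD of either group. Tests across genes were made with limma on log2(FPKM + 1), a scale that understates the change of genes with low values, over the 10392 genes that reached 1 FPKM in 3 or more of the 6 samples. The log2 fold change of Il3 was 2.02 (standard error 0.0818, limma adjusted p = 2.47e-06), at rank 6 counted from the highest of the genes tested. That of Il4 was 2.00 (standard error 0.0650, limma adjusted p = 9.82e-07), at rank 7. Il13 followed at rank 16 with 1.40 (standard error 0.0937, limma adjusted p = 5.90e-05). All 3 tested members were thus called higher at an adjusted p of at most 0.05, where 14.7% of all tested genes were called higher, 14.4% lower and 29.2% in either direction. The exact permutation test gave p = 0.1 for each of the 3, two-sided, the smallest p that 3 samples against 3 allow.

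**Figure D1:**
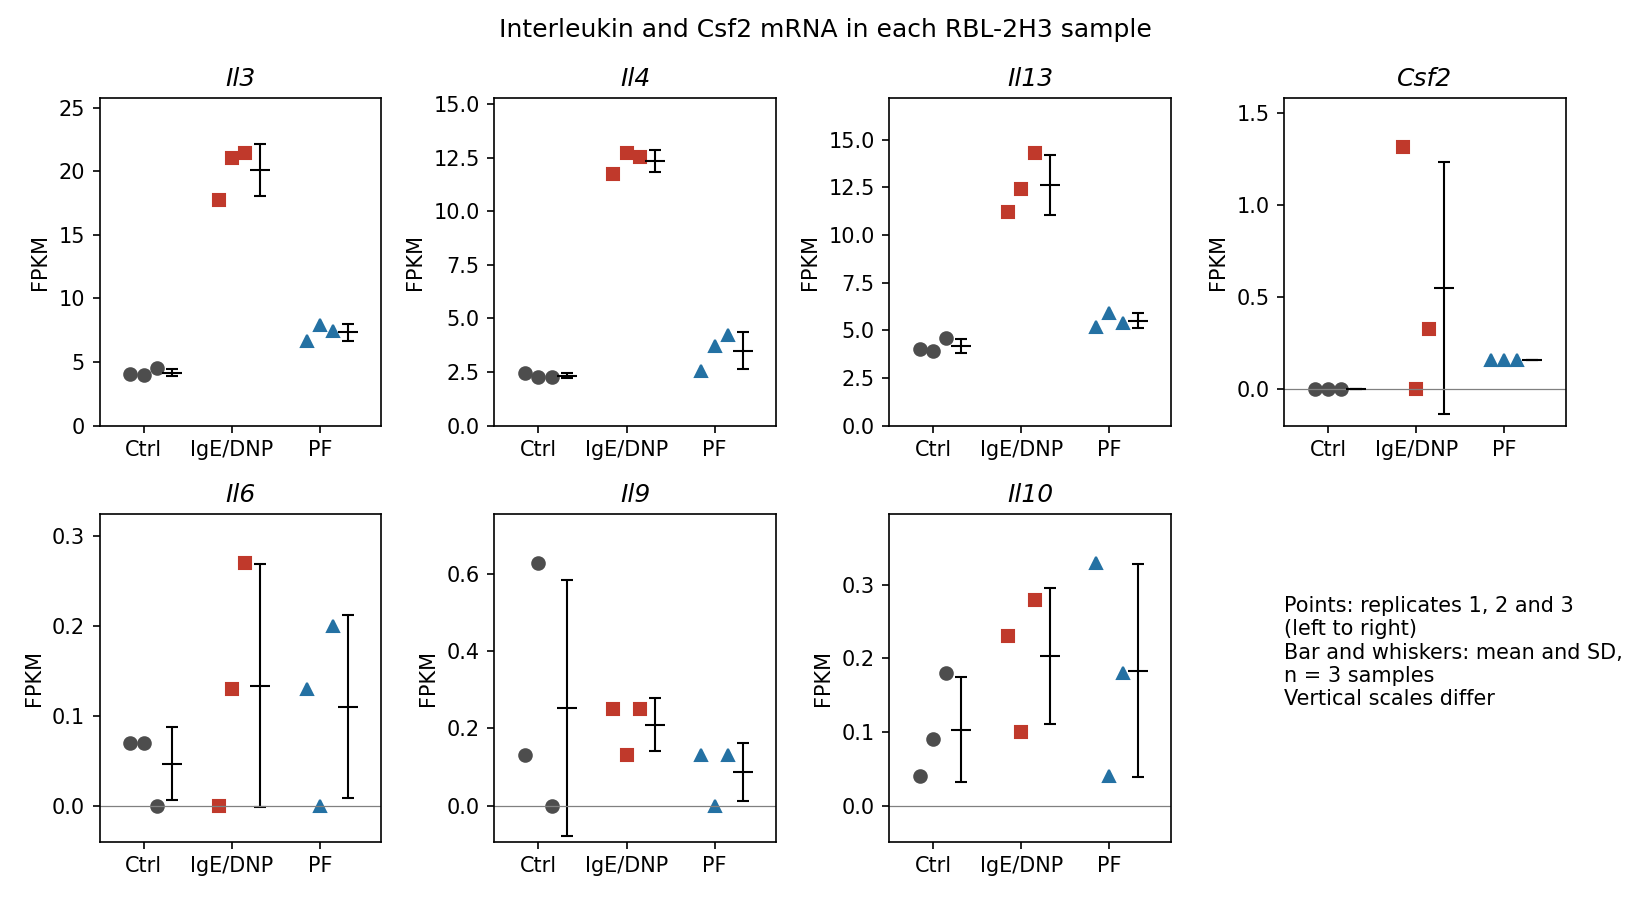
FPKM of the 7 genes with a value in each of the 9 samples (points, replicates 1, 2 and 3 from left to right within a group), with the mean and SD of each group (n = 3) beside them. The vertical scales differ between panels. Il3, Il4 and Il13 are lowest in Ctrl and highest in IgE/DNP without overlap, while the groups of Il6, Il9 and Il10 overlap near 0.

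The other 5 genes stayed at or near the floor in stimulated cells as well. Csf2 was listed at 0 in the 3 Ctrl samples and had 1.32, 0 and 0.33 FPKM in the IgE/DNP samples and 0.16 FPKM in each PF sample. Its highest value thus came from 1 stimulated sample, next to another stimulated sample at 0. Il6, the proinflammatory interleukin, had 0.07, 0.07 and 0 FPKM in Ctrl, 0, 0.13 and 0.27 FPKM in IgE/DNP and 0.13, 0 and 0.20 FPKM in PF. Il9, a growth factor of T cells and MCs, had 0.13, 0.63 and 0 FPKM in Ctrl, 0.25, 0.13 and 0.25 FPKM in IgE/DNP and 0.13, 0 and 0.13 FPKM in PF. For both genes the 3 groups overlapped, and the highest single value of Il9 was in a Ctrl sample. Il10, an interleukin that dampens inflammation, had a value above 0 in 9 of 9 samples, from 0.04 to 0.33 FPKM, and its groups overlapped in the same way.

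Some of these low values fell on regular steps. The values of Csf2 lay close to whole multiples of about 0.165 FPKM, those of Il6 close to multiples of about 0.0668 FPKM and those of Il9 close to multiples of about 0.126 FPKM. If a step is read as 1 fragment, each of the 3 genes rests on 13 fragments over the 9 samples. For Csf2 these would be 8, 0 and 2 fragments in the IgE/DNP samples and 1 in each PF sample. For Il10 no single step came within the misfit allowed, and how many fragments its values rest on was not determined. At this depth a difference between groups was not detectable for Il6, Il9 and Il10. The 4 low genes did not pass the filter of limma. In a fit without the filter Csf2 had a log2 fold change of 0.54 in IgE/DNP vs Ctrl (standard error 0.282, limma adjusted p = 0.284). Il6, Il9 and Il10 had adjusted p-values of 0.501, 0.962 and 0.322 in the same limma fit. In PF vs Ctrl that fit called Csf2 higher, by 0.21 in log2 (standard error 0.0185, limma adjusted p = 3.25e-04), a result that rests on the single step in each PF sample against 0 in each Ctrl sample.

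PF pretreatment was compared with antigen alone to see whether it altered the response. In the PF samples the 3 detected interleukins were all lower than in the IgE/DNP samples, and Il4 fell the most. Il3 was at 6.63, 7.94 and 7.42 FPKM, Il4 at 2.55, 3.71 and 4.22 FPKM and Il13 at 5.19, 5.93 and 5.37 FPKM in the PF samples. Every PF sample lay below every IgE/DNP sample for each of these genes. The mean of Il3 was 7.33 ± 0.660 FPKM (SD, n = 3), 0.365 of its mean in IgE/DNP. Il4 was at 3.49 ± 0.856 FPKM (SD, n = 3), a ratio of 0.283, and Il13 at 5.50 ± 0.386 FPKM (SD, n = 3), a ratio of 0.435. The scatter of Il4 between PF samples was wider than that of the other genes, with an SD of 24.5% of the mean, against 7.02% for Il13 and a share between these for Il3.

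The log2 fold change of Il4 in PF vs IgE/DNP was -1.59 (standard error 0.127, limma adjusted p = 1.68e-05). For Il3 it was -1.34 (standard error 0.0853, limma adjusted p = 4.47e-06), and for Il13 it was -1.07 (standard error 0.0892, limma adjusted p = 2.23e-05). Counted from the lowest log2 fold change of 10329 genes tested, Il4 stood at rank 37, Il3 at rank 82 and Il13 at rank 184. All 3 tested members were called lower, where 30.7% of all tested genes were called lower, 18.1% higher and 48.8% in either direction. Of the genes called, 37.1% were higher in PF as deposited, 51.5% after scaling by median ratios and 16.8% after scaling each sample to the mean of the sums. The 3 members were called lower under each of these scalings. The exact permutation test gave p = 0.1 for each, two-sided, the smallest it can give.

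PF vs Ctrl asks whether the mRNAs were back at the resting level. In limma this was not so for Il3, nor for Il13 in 13 of 14 alternative settings. The result for Il4 depended on the samples and the processing. Every PF sample was above every Ctrl sample for Il3, Il4 and Il13, although for Il4 by only 2.55 against 2.47 FPKM at the closest. That gap is smaller than a single step of Il9 or Csf2 (about 0.126 and 0.165 FPKM), and the step of Il4 was not determined. The log2 fold change in PF vs Ctrl was 0.68 for Il3 (standard error 0.0810, limma adjusted p = 1.52e-04), with a ratio of means of 1.76. It was 0.33 for Il13 (standard error 0.0804, limma adjusted p = 0.00727), a ratio of 1.32, and 0.41 for Il4 (standard error 0.135, limma adjusted p = 0.0283). With all samples the 3 tested members were called higher, where 23.1% of the 10361 tested genes were called higher, 34.6% lower and 57.7% in either direction. Of the genes called, 40.0% were higher as deposited, 51.1% with median ratios and 26.7% with the mean of the sums. The call of Il4 was lost with the mean of the sums (log2 fold change 0.35), where its adjusted p was just over the limit. Without the filter on low values its log2 fold change stayed at 0.41, but the call was lost (limma adjusted p = 0.0786). It was also lost when Ctrl replicate 2, Ctrl replicate 3, PF replicate 2 or PF replicate 3 was left out, with log2 fold changes of 0.40, 0.40, 0.37 and 0.30. With PF replicate 1 as the sole PF sample, Il4 and Il13 were not called and Il3 was. The log2 fold changes there were 0.09 for Il4, 0.26 for Il13 and 0.56 for Il3, and 1 sample gives no spread of its own. Il13 kept its call in the other alternatives, 13 of 14. The exact permutation test gave p = 0.1 for each of the 3 genes, two-sided, the smallest possible. The 3 comparisons share samples, so their values are not independent of each other.

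Of the increase of IgE/DNP over Ctrl, the PF mean held 19.8% for Il3, 15.7% for Il13 and 11.6% for Il4. In single PF samples this share ran from 15.4% to 23.7% for Il3, from 12.1% to 20.9% for Il13 and from 2.17% to 18.9% for Il4. The lowest share of each gene was that of PF replicate 1, the sample given 4 h in both label fields. Replicates 2 and 3 carry 5 and 6 h in one field, and with 1 sample at each time, time and sample cannot be told apart.

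The order of the 3 genes changed between groups. In Ctrl, Il3 and Il13 could not be ranked, since they differed within a sample by -0.08 to 0.07 FPKM, and both exceeded Il4 in all 3 samples. In IgE/DNP, Il3 exceeded Il13 by 6.55 to 8.66 FPKM and Il4 by 5.99 to 8.95 FPKM. There Il4 was above Il13 in 2 of 3 samples and below it in the other, so these neighbours did not differ beyond their spread. In PF the order was Il3, Il13 and Il4 in all 3 samples. Within a sample, the ratio of Il4 to Il13 was 0.618, 0.578 and 0.496 in Ctrl, 1.05, 1.03 and 0.874 in IgE/DNP and 0.491, 0.626 and 0.786 in PF. The IgE/DNP samples thus stood apart from both other groups, which overlapped. The ratio of Il3 to Il13 was close to even in Ctrl, at 1.02, 1.01 and 0.983, highest in IgE/DNP, reaching 1.70 in replicate 2, and between these in PF, at 1.28, 1.34 and 1.38. The ratio of Il3 to Il4 overlapped between Ctrl and IgE/DNP, from 1.51 to 1.98 over the 6 samples. In PF it was 2.60, 2.14 and 1.76, above every IgE/DNP sample, and overlapped with Ctrl. For each ratio and pair of groups without overlap the exact permutation test gave p = 0.1, the smallest possible, or 0.15 after adjustment over the 9 tests of ratios. Among all 18006 genes with a value, Il3 lay above 76.2% by its mean in IgE/DNP, Il13 above 68.6% and Il4 above 68.2%, so even when induced they were of moderate abundance.

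By the gene order of RefSeq (rat assembly GRCr8), 5 of the 8 genes lie together on chromosome 10, in the order Il4, Il13, Il5, Csf2 and Il3, the conserved type 2 cytokine and GM-CSF cluster. Rad50, a DNA repair gene, sits between Il13 and Il5, and Irf1 and carrier genes of the Slc22a family lie between Il5 and Csf2. Il6, Il9 and Il10 are elsewhere, on chromosomes 4, 17 and 13. Within the cluster the levels with antigen were uneven. Il4, Il13 and Il3 were higher than in Ctrl, while Il5 had no value and Csf2 was near the floor. A change of Csf2 could not be measured at this depth, so its response was not compared with theirs. Csf2 is the direct neighbour of Il3, yet had 0.550 ± 0.687 FPKM where Il3 had 20.1 ± 2.04 FPKM (SD, n = 3 each, IgE/DNP). The genes around them were examined too. From Hspa4 to Acsl6 the cluster holds 23 protein-coding genes, 18 of them not members, of which 9 were tested. In IgE/DNP vs Ctrl, 0 of the 9 were called higher by limma, and 1 was lower, Irf1, by -0.45 in log2 (standard error 0.0626, limma adjusted p = 0.00157), against 14.7% higher and 14.4% lower of all tested genes, so the counts are near those shares. At an unadjusted p of at most 0.05, 3 of them were higher, none with a log2 fold change above 0.15, and 1 was called after scaling by median ratios. Rad50, next to Il13, was 1 of these 3, with 19.1 ± 1.10 FPKM in Ctrl, 21.1 ± 0.162 in IgE/DNP and 17.3 ± 0.671 in PF (SD, n = 3 each). In PF vs IgE/DNP, 1 of the 9 was called higher, Uqcrq, and 2 lower, Irf1 and Rad50. Their log2 fold changes were 0.43, -0.55 and -0.28, where 18.1% of all tested genes were higher and 30.7% lower. Hspa4 was also called higher after scaling by median ratios (0.15, limma adjusted p = 0.00545). Aff4 was also called lower after scaling to the mean of the sums (-0.23, limma adjusted p = 0.0106).

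**Figure D2:**
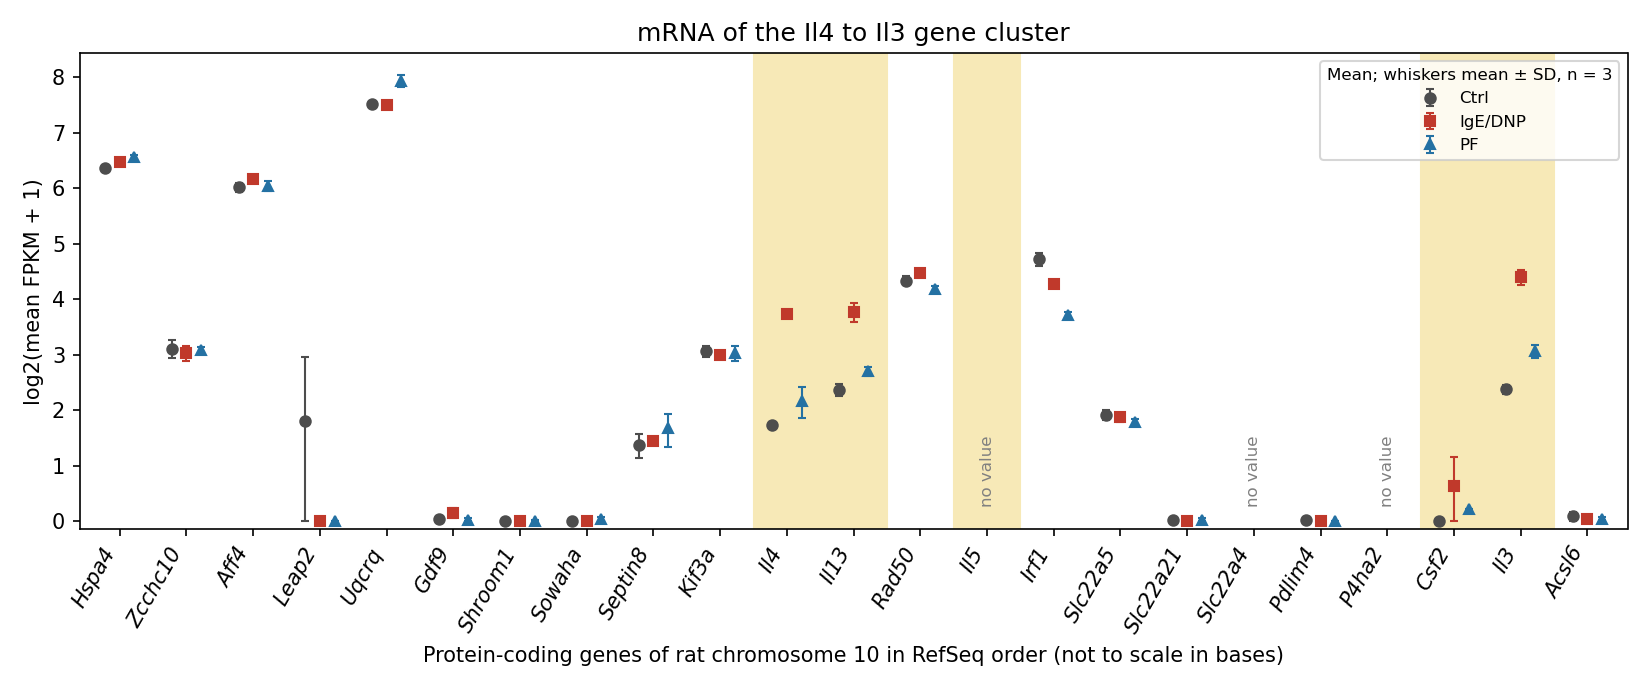
Mean level, as log2(FPKM + 1), of 23 protein-coding genes in their RefSeq order on rat chromosome 10 in Ctrl, IgE/DNP and PF samples (whiskers, mean ± SD, n = 3, horizontal positions are ranks, not distances, and members are shaded). Il4, Il13 and Il3 are higher in IgE/DNP than in the other groups, Csf2 is near 0 and Il5 has no value.

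RefSeq promoter sequences (GRCr8) were at hand for 6 of the 8 genes, Il3, Il4, Il5, Il6, Il9 and Csf2, and not for Il13 and Il10. The 250 bases before the gene start were searched on both strands for the letters of sites of transcription factors known to act on cytokine genes. The NFAT core GGAAA was found 4 times in Il4, 3 times in Il6 and Il9, 2 times in Il5 and 1 time in Il3 and Csf2. Of all 33469 promoters, 56.9% hold at least 1 match, 7.14% at least 3 and 1.72% at least 4. The AP-1 site TGANTCA, in 6.34% of all promoters, was found in Il9 only, 1 time. Of GATA sites only the form AGATAA, in 10.3% of all promoters, was searched, and it was found in Il3 only, 1 time. The EGR site GCGTGGGCG, in 0.478%, was found in none of the 6, and its shorter form GTGGGNG, in 25.6%, was found 2 times in Il6. The TATA box TATAAA, in 12.9%, was found in none of the 6. Forms of a site other than those named were not searched. A match is a description of the letters, and binding was not measured.

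The sequences of Il3 and Il4 are given because these mRNAs rose together, and that of Csf2 because it neighbours Il3 and stayed near 0. They read 5′ to 3′ on the strand of the gene, which is the minus strand for all 3, and end at the base before the gene start, at chr10:38908811-38909060 for Il3, chr10:38277550-38277799 for Il4 and chr10:38889674-38889923 for Csf2. Capitals mark the NFAT core on either strand.
Il3: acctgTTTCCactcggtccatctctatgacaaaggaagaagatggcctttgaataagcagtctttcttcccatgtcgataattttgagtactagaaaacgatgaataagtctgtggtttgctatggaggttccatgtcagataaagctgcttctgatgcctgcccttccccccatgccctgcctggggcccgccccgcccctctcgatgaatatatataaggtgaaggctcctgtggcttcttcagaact
Il4: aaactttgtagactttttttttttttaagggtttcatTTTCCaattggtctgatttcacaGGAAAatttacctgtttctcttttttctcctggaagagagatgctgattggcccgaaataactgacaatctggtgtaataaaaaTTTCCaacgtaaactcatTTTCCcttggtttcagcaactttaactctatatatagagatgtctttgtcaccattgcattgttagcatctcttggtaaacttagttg
Csf2: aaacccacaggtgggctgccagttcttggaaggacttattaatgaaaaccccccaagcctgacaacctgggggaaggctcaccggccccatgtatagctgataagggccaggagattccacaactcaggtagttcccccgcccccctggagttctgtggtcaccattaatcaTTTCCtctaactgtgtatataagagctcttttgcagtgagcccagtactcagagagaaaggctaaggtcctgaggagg
In Il4 the 4 matches start 213, 190, 106 and 88 bases before the gene start, whereas the matches of Il3 and Csf2 start 245 and 78 bases before it.

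Receptors for the detected interleukins were expressed in the same cells, in part. Of 13 receptor chains listed for the 8 cytokines, 8 were detected, 4 were low and 1 had no value. The IL-3 receptor was complete, with its alpha chain Il3ra at 33.6 ± 2.07, 28.7 ± 0.617 and 31.6 ± 1.37 FPKM in Ctrl, IgE/DNP and PF and its signalling beta chain Csf2rb at 341 ± 1.75, 255 ± 6.95 and 143 ± 6.54 FPKM (SD, n = 3 each). Csf2rb thus fell with antigen, by -0.42 in log2 (limma adjusted p = 1.07e-04), and again with PF, by -0.84 (limma adjusted p = 1.06e-06). For IL-4 the alpha chain Il4r was at 44.6 ± 0.535, 43.2 ± 0.831 and 24.2 ± 0.882 FPKM, and its partner Il2rg at means of 45.4, 49.5 and 43.2 FPKM with an SD of at most 2.55 (n = 3 each). Il4r had a log2 fold change of -0.81 in PF vs IgE/DNP (limma adjusted p = 1.36e-06). Il13ra1, with which Il4r forms the IL-13 receptor, was at or below 0.28 FPKM in every sample, and the decoy receptor Il13ra2 had no value. Il13 mRNA therefore rose in cells with scarcely any mRNA of its own receptor chain. Il10ra moved most, from 9.48 ± 0.669 FPKM in IgE/DNP to 2.22 ± 0.636 FPKM in PF (SD, n = 3 each), or -1.72 in log2 (limma adjusted p = 1.45e-05). Of the 8 tested chains, 1 was higher and 2 lower in IgE/DNP vs Ctrl (all tested genes: 14.7% and 14.4%), and 1 higher and 6 lower in PF vs IgE/DNP (all tested genes: 18.1% and 30.7%). The single higher chain in the latter, Il3ra, was not called after scaling to the mean of the sums, and Il2rg, 1 of the 6, was not called after scaling by median ratios.

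Downstream of these receptors, JAK kinases activate STAT factors, and STAT5 and STAT6 raise a set of target genes. All 9 JAK and STAT genes listed were detected, and in PF vs IgE/DNP 4 were lower, where 30.7% of all tested genes were. After scaling by median ratios 1 was higher and 4 were lower, and after scaling to the mean of the sums 5 were lower. The 4 as deposited were Jak2, Stat6, Tyk2 and Stat3, with log2 fold changes of -0.56, -0.41, -0.40 and -0.19. In IgE/DNP vs Ctrl, 1 of the 9 was higher and 2 were lower, among them Stat6, with -0.39, against 14.7% and 14.4% of all tested genes. Of 9 target genes listed, 7 were tested and all 7 were lower in PF than in IgE/DNP samples, also under both scalings, where 30.7% of all tested genes were lower. The feedback inhibitor Cish was at 18.3 ± 2.11 FPKM in Ctrl, 22.0 ± 1.72 in IgE/DNP (SD, n = 3 each), and at a mean of 4.16 in PF. Its log2 fold change in PF vs IgE/DNP was -2.16 (limma adjusted p = 1.48e-07), and those of Socs3, Socs1 and Osm were -2.02, -1.57 and -1.17. With antigen alone, 2 of the 7 were called higher and 1 lower (all tested genes: 14.7% and 14.4%), and 4 were higher after scaling to the mean of the sums. Unlike Il3, Il4 and Il13, these 7 genes were also lower in PF than in Ctrl samples, 7 of 7, against 34.6% of all tested genes. The median log2 fold change in PF vs IgE/DNP was -1.17 over the 7 target genes and -1.34 over the 3 tested interleukins, against -0.04 over all genes tested.

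**Figure D3:**
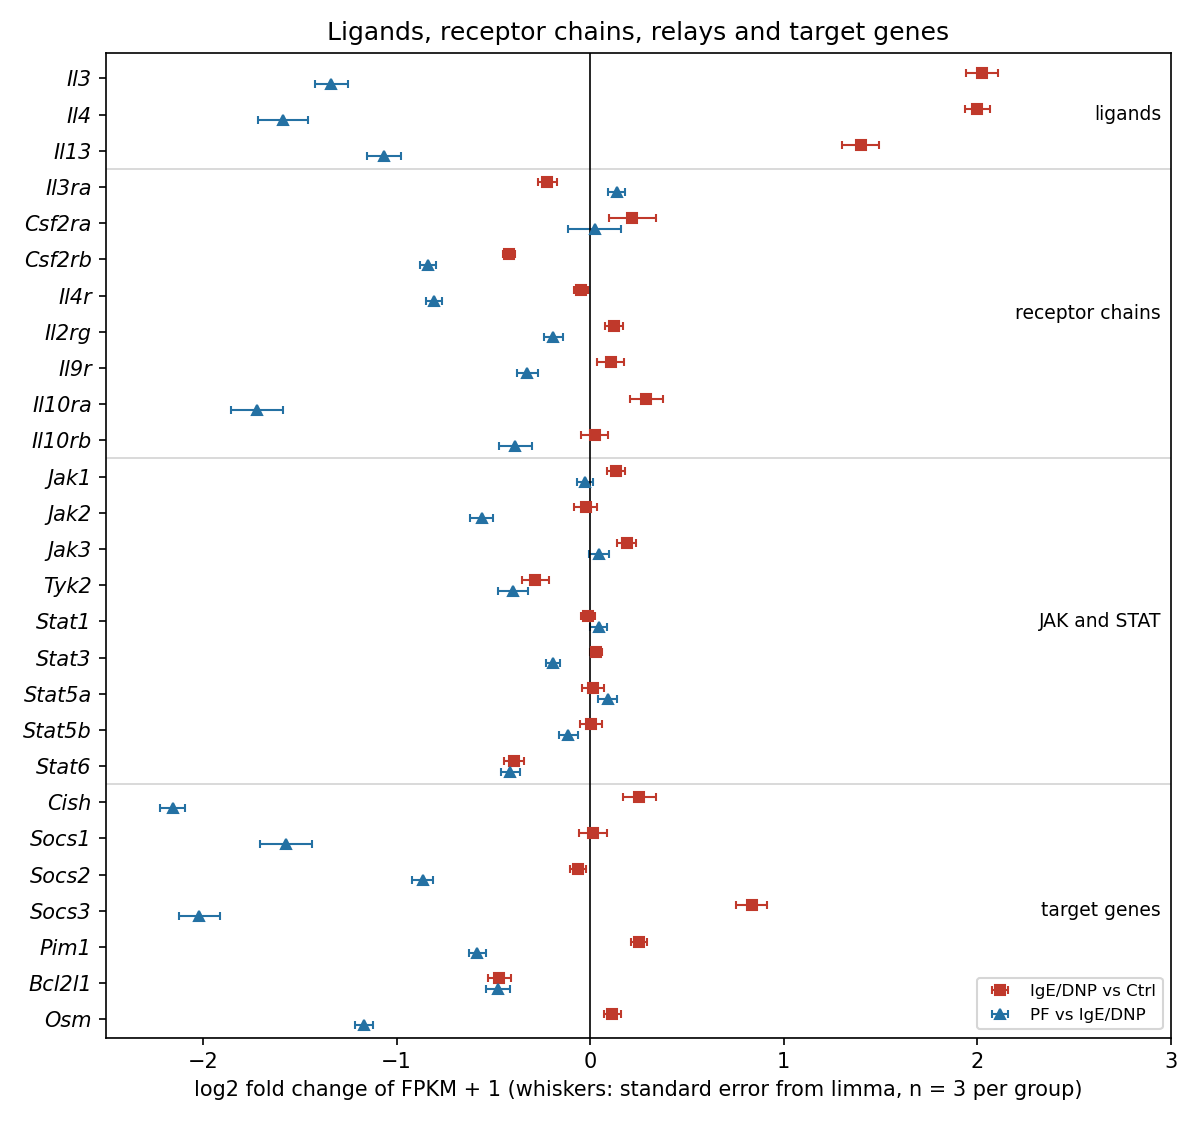
Log2 fold changes of FPKM + 1 in IgE/DNP vs Ctrl (squares) and PF vs IgE/DNP (triangles), with limma standard errors (n = 3 per group), of the tested ligands, receptor chains, JAK and STAT genes and target genes. The 3 interleukins lie to the right with antigen and to the left with PF, whereas the 7 target genes lie to the left with PF and with antigen Socs3 lies farthest to the right of them, at 0.83.

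Transcription factors known to act on type 2 cytokine genes were mostly expressed, 15 of 17. With antigen 6 of the 15 were higher and 1 lower (all tested genes: 14.7% and 14.4%). In PF vs IgE/DNP 1 was higher and 12 lower (all tested genes: 18.1% and 30.7%). The former counts hold Egr2 and the latter Irf4, which passed the filter there only through the IgE/DNP samples, where they were high. The filter thus fixed the direction of these calls. Egr3 followed the course of the interleukins, at 2.50 ± 0.408, 44.9 ± 2.85 and 7.19 ± 0.447 FPKM in Ctrl, IgE/DNP and PF (SD, n = 3 each). Egr1 did not, at 3.65 ± 0.329, 169 ± 9.59 and 226 ± 10.7 FPKM (SD, n = 3 each), so in PF samples it was high where Il4 was low. Egr2 was at 0.0767 ± 0.0379, 2.46 ± 0.168 and 1.36 ± 0.0737 FPKM, and Bhlhe40 at 181 ± 3.71, 172 ± 2.16 and 67.8 ± 2.00 FPKM (SD, n = 3 each). Among 9 factors that govern the decay of cytokine mRNA, 3 were higher and 3 lower with antigen (all tested genes: 14.7% and 14.4%), and 3 and 2 after scaling to the mean of the sums. Zfp36l1, which destabilizes AU-rich mRNAs, was higher beside the interleukins, at 35.9 ± 1.35, 88.2 ± 3.87 and 42.6 ± 1.39 FPKM (SD, n = 3 each). In PF vs IgE/DNP 3 of these 9 were higher and 2 lower (all tested genes: 18.1% and 30.7%). This balance depended on scaling, with 4 higher and 2 lower by median ratios and 2 higher and 4 lower by the mean of the sums. The largest log2 fold changes were -1.03 for Zfp36l1, -0.59 for Zc3h12a, 0.54 for Zfp36l2 and 0.27 for Hnrnpd. The part of any of these factors in the interleukin levels was not tested.

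Other secreted ligands were looked up beside the interleukins. Of 30 further interleukins and related ligands, 5 were detected, 18 were low and 7 had no value. Of the 5 tested, 3 were higher and 1 lower with antigen (all tested genes: 14.7% and 14.4%). In PF vs IgE/DNP 2 were higher and 2 lower (all tested genes: 18.1% and 30.7%). The latter counts were 3 and 2 by median ratios and 1 and 2 by the mean of the sums. Lif and Csf1, like Il3, Il4 and Il13, were called higher with antigen and lower with PF. Tgfb1 was called higher in both comparisons, by 0.21 and 0.15 in log2, the latter call being lost with the mean of the sums. Lif was at 112 ± 9.35, 307 ± 5.20 and 234 ± 10.5 FPKM in Ctrl, IgE/DNP and PF (SD, n = 3 each), with log2 fold changes of 1.46 (limma adjusted p = 1.86e-06) and -0.39 (limma adjusted p = 5.27e-05). Tnf was at 6.37 ± 1.17, 8.29 ± 0.884 and 17.1 ± 3.12 FPKM in Ctrl, IgE/DNP and PF, the reverse of the course of Il4 in PF. Csf1 was far more abundant than Csf2, at 324 ± 15.8, 450 ± 6.09 and 165 ± 2.54 FPKM, with log2 fold changes of 0.47 (limma adjusted p = 1.69e-04) and -1.44 (limma adjusted p = 4.52e-08), and Il18 was at 173 ± 4.32, 147 ± 4.06 and 150 ± 4.25 FPKM (SD, n = 3 each). Of the interleukin genes looked up, Il3, Il4, Il13 and Il18 were thus the ones detected.

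Over the 9 samples, the genes whose log2(FPKM + 1) followed a member most closely were ranked by Pearson's r among 10504 genes. For Il3 they were Egr3 (0.995), Nr4a3 (0.993), Hs3st1 (0.991), Il13 (0.991, rank 4) and Plk3 (0.987). For Il13 they were Nr4a3 (0.995), Il3 (0.991, rank 2), Zfp36l1 (0.986), Egr3 (0.983) and Rhoh (0.983). For Il4 they were Fam107b (0.994), Ccl2 (0.993), Zfand2a (0.992), Zfp36l1 (0.989) and Slc35e4 (0.986), with Il3 at rank 10 and Il13 at rank 13. By r, Il3 and Il13 were thus closer to each other than either was to Il4. The size of a change does not enter r. By log2 fold change with antigen, Il3 was closer to Il4 (2.02 and 2.00) than to Il13 (1.40). The r values describe 9 samples in 3 groups, and differences between groups weigh heavily in them.

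The labels name the tissue as peripheral blood, although RBL-2H3 is a cell line, and MC genes were abundant in all samples. Of 16 markers of MCs and basophils, 13 were detected, 1 was low and 2, the tryptase genes Tpsb2 and Tpsab1, had no value. They summed to 5533 to 5926 FPKM per sample, and the proteoglycan gene Srgn was the most abundant, with a mean of 2846 FPKM. Of the 13 tested, 2 were higher and 4 lower with antigen (all tested genes: 14.7% and 14.4%), and 3 higher and 3 lower in PF vs IgE/DNP (all tested genes: 18.1% and 30.7%). The latter counts were 6 and 2 after scaling by median ratios and 1 and 5 after scaling to the mean of the sums. Mcpt2, Mitf and Fcer1g had log2 fold changes of -0.64, 0.54 and -0.16 with antigen and of 0.19, -0.25 and 0.34 in PF vs IgE/DNP. Since Il3, Il4, Il13 and Csf2 are also made by T cells, markers of other cells were examined. T cell markers summed to 9.30 to 12.2 FPKM, of which Cd3e gave a mean of 8.28 FPKM. Cd3e was at 7.41 ± 1.08, 8.46 ± 0.607 and 8.97 ± 0.498 FPKM in Ctrl, IgE/DNP and PF (SD, n = 3 each), and was called higher in PF than in Ctrl (limma adjusted p = 0.0459), a call lost after scaling to the mean of the sums (limma adjusted p = 0.127). Single T cell markers took different courses. Lck was at 1.56 ± 0.218, 0.947 ± 0.0907 and 0.813 ± 0.137 FPKM in Ctrl, IgE/DNP and PF and Cd247 at 0.857 ± 0.179, 0.633 ± 0.167 and 1.31 ± 0.175 FPKM (SD, n = 3 each). Cd3g was low, with 0.18, 0.34 and 0.11 FPKM in Ctrl, 0.69, 0.23 and 0.58 FPKM in IgE/DNP and 0.23, 0.67 and 0.11 FPKM in PF, and its groups overlapped. Lck was called lower with antigen (limma adjusted p = 0.0207), while Cd3d was at 0 in 8 of 9 samples and Cd2 had no value. Cd247 was called higher in PF than in IgE/DNP (limma adjusted p = 0.00596). It reached 1 FPKM in the PF samples and in no IgE/DNP sample, so the filter fixed the direction of that call. The sums were 9.30, 9.87 and 11.4 FPKM in Ctrl, 10.5, 11.2 and 10.4 in IgE/DNP and 11.2, 12.2 and 11.2 in PF. Whether other cells contributed to the interleukin values was not tested. Sums reached at most 1.15 FPKM for B cell markers, 2.62 FPKM for macrophage markers, 0.700 FPKM for eosinophil markers and 0.630 FPKM for fibroblast markers.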

How the data were processed

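The authors mapped reads with HISAT2, quantified genes with RSEM after alignment with Bowtie2 to rn6, and tested them with DESeq2. The labels name an Illumina protocol, the study's methods a BGISEQ-500 sequencer. The deposited values name no unit and were read as FPKM, since they have decimals and unequal sums. Files were joined by gene identifier. Each comparison used its own 6 samples in limma 3.58.1 (R 4.3.3), with lmFit and a trended eBayes, on log2(FPKM + 1). Tested genes reached 1 FPKM in 3 or more of these samples. Adjustment was by Benjamini-Hochberg over all of them, with a limit of 0.05. The code was tested on simulated data. Exact permutation tests were two-sided. The members and lists were chosen with earlier results of these data known. Named were the members, up to 4 tested genes per list with the largest absolute log2 fold change in IgE/DNP vs Ctrl or PF vs IgE/DNP, receptor chains of detected members, genes most like a member, cluster boundaries and some cell type markers, of which the markers were picked with their values in view. Genes whose direction the filter fixed were named too. Sequences and gene order are from RefSeq (GRCr8), whose coordinates were not combined with rn6. Alternatives were a pseudocount of 0.1, no filter, all 9 samples together, a replicate block, each sample left out, 2 scalings, no trend, and PF replicate 1 as the sole PF sample.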

Additional observations from a re-analysis of the deposited data

How the results depend on the processing

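Under every alternative run, Il3, Il4 and Il13 were called higher in IgE/DNP vs Ctrl and lower in PF vs IgE/DNP. Their log2 fold changes ranged from 1.98 to 2.24, 1.98 to 2.35 and 1.31 to 1.58 in the former and from -1.46 to -1.28, -1.91 to -1.43 and -1.18 to -0.98 in the latter. Il3 was also called in PF vs Ctrl under all 14 alternatives, from 0.56 to 0.80. In the fit with PF replicate 1 as the sole PF sample, that sample was assumed to vary like the Ctrl samples. The log2 fold changes in PF vs Ctrl were then 0.56 for Il3, 0.26 for Il13 and 0.09 for Il4. The log2 fold change of Il4 itself was smaller there than the 0.41 with all 3 PF samples, and the cause was not tested. Il4 kept its call in PF vs Ctrl in 7 of 14 alternatives and Il13 in 13 of 14. Without the filter the count of members in PF vs Ctrl was again 3, with Csf2 in place of Il4.

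With each sample left out in turn, 2108 to 2724 genes were called in IgE/DNP vs Ctrl, 4258 to 4800 in PF vs IgE/DNP and 5233 to 5585 in PF vs Ctrl, and 2 to 3 members in the last. With the replicate block, 2697, 4675 and 6009 genes were called, and 3 members in each comparison. Samples with the same number did not deviate together in general, with correlations from -0.0739 to 0.0514, -0.0822 to 0.00049 and 0.083 to 0.189 in the 3 comparisons, so the numbers were not taken to pair them. In PF vs Ctrl each sample correlated best with its own number. The median log2 fold change of all genes tested in PF vs IgE/DNP was -0.04 as deposited, 0.02 with median ratios and -0.13 with the mean of the sums. Reads per sample are unknown, and genes with a few fragments, such as Csf2, Il6 and Il9, are below what these samples can compare. Differences in bias with gene length or base composition were not tested.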

Other observations

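The sequences of the PCR primers listed for rat Il4 were compared with RefSeq windows of 300 bases around the gene start (GRCr8, 250 bases before and 50 after). The forward primer is an exact match, as written, within 1 of 33469 windows, that of Il3, from base 6 to base 23 after the gene start. The reverse primer listed for rat Il4 has the same 18 bases as the reverse primer listed for rat Ccl2, and is in none of the windows. The primers are
forward: gaggaccagaacgagaca
reverse: ccagaagcgtgacagaga
The Il4 transcript beyond its first 50 bases was not searched here, and what these primers amplify was not measured. The FPKM values do not rest on PCR primers.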
